A study of Homo sapiens with 12 samples.

Results

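The nuclear pore and nuclear transport genes were taken by name from a gene count table of an EU-seq experiment. They comprised every gene whose symbol is NUP, KPNA or IPO followed by a number, or XPO followed by a digit or T. The genes KPNB1, TPR, RANBP2, RAN, RCC1, RANGAP1, RANBP1, CSE1L, TNPO1, TNPO3, NDC1 and POM121 were added to these. In all, 53 of the 23434 genes in the table were members. The rule uses gene symbols alone.

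Nuclear pore complexes are the gates of the nuclear envelope. Stacked rings of scaffold nucleoporins hold a central channel of disordered, phenylalanine-glycine-rich nucleoporins, which importins and exportins cross while bound to cargo. The small GTPase Ran sets the direction of travel, because chromatin-bound RCC1 keeps it loaded with GTP in the nucleus while RANGAP1 and RANBP1 convert it to the GDP form in the cytoplasm. Growing cells make large amounts of ribosomal and nuclear protein that must pass these gates, and several genes of the Ran cycle and of the importin family have been described as targets of the transcription factor Myc.

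The cells were U2OS-MycER, derived from a human osteosarcoma and expressing a fusion of Myc with the estrogen receptor, so that 4-hydroxytamoxifen (OHT) moves the fusion into the nucleus. The cells carried an shRNA that was either non-targeting (shNT) or directed against CDK12 (shCDK12), a kinase of transcribing RNA polymerase II, and each was kept without or with OHT. This gave 4 groups, shNT, shNT+OHT, shCDK12 and shCDK12+OHT, of 3 libraries each. Cells of all 12 libraries received doxycycline at 1 µg/mL to induce the shRNA, were held in nocodazole at 100 ng/mL for 8 h, and were collected by shake-off and released for 12 h. OHT was given at 300 nM for 40 h. Newly made RNA was labelled with 5-ethynyl uridine (EU) at 0.5 mM for 2 h, so a count reports RNA synthesised in that time and not the standing mRNA pool. The labels do not say that the libraries of a group came from separate cultures, so the p-values measure the spread between these libraries, which may be technical.

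The libraries held 1251695 to 10447836 counts, an 8.35-fold range, and the shNT+OHT libraries were the shallowest as a group. The members took 0.6% to 0.77% of each library. Their share was 0.6% to 0.624% in the 3 shCDK12+OHT libraries and 0.652% to 0.77% in the other 9. The median member had a median of 431 counts over the libraries, KPNA2 the most with 2338 and KPNA7 the fewest with 3.5. Levels are given as CPM, counts scaled to a common library total after TMM normalisation, which compares one gene between libraries but not different genes with each other. CPM are relative to all counted RNA, so a change in the total amount of RNA made per cell is not visible in them.

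CDK12, the gene that the shRNA targets, read 323, 289 and 300 CPM in the shNT libraries and 293, 277 and 298 CPM in the libraries labelled shCDK12. These groups overlapped, and the log2 difference of -0.08 ± 0.08 (SE) had an adjusted p of 0.447 (edgeR). With OHT it read 434, 356 and 400 CPM with shNT. It read 215, 208 and 218 CPM where the label was shCDK12+OHT, a log2 difference of -0.88 ± 0.11 with an adjusted p of 0.00011. CDK12 was thus lower with the label shCDK12+OHT but not with the label shCDK12. Upon OHT it rose in shNT cells (0.38 ± 0.12, adjusted p 0.0352) and fell in the libraries labelled shCDK12 (-0.44 ± 0.07, adjusted p 9.55e-05). An shRNA acts on mature RNA, and whether it shows in a 2 h label of new RNA was not tested. These counts did not settle the labels of the shCDK12 libraries, on which every contrast with them rests. With the labels shCDK12 and shCDK12+OHT exchanged, the CDK12 means would be 214 against 304 CPM without OHT and 289 against 397 CPM with it. CDK12 would then be lower than with shNT in both, and the OHT contrast in these libraries would change sign. Such an exchange was not tested. Reads of the Myc fusion gene may be mixed into the MYC counts. MYC was at 2221, 2044 and 2013 CPM in the shNT libraries and at 1214, 1035 and 1122 CPM in those labelled shCDK12. With OHT it was at 2199, 1706 and 1997 CPM in shNT+OHT and at 2091, 2095 and 2000 CPM in those labelled shCDK12+OHT. Its log2 change upon OHT was -0.093 ± 0.10 in shNT (adjusted p 0.575) and 0.88 ± 0.075 in the libraries labelled shCDK12 (adjusted p 4.98e-08). Of 5 markers of a mesenchymal line, VIM, COL1A1, SPARC and RUNX2 were present in all 12 libraries, whereas the collagen gene COL1A2 stayed at or under 1.16 CPM. The 4 present markers had lower means in the libraries labelled shCDK12 than in shNT, VIM at 180 against 323 CPM, COL1A1 at 46.2 against 161 CPM, SPARC at 79.7 against 185 CPM and RUNX2 at 61.1 against 218 CPM. In shCDK12+OHT against shNT+OHT the means were 174 against 330 CPM for VIM and 61.1 against 91.6 CPM for COL1A1. They were 125 against 128 CPM for SPARC and 109 against 136 CPM for RUNX2. The leukocyte marker PTPRC and the endothelial marker PECAM1 were at or under 1.37 CPM, and CDH1 lay between 3.99 and 12.2 CPM. EPCAM, an epithelial marker, was at 6.66 to 9.55 CPM in the 3 libraries labelled shCDK12 and at 0 to 1.76 CPM in shNT. With OHT it was at 2.36 to 2.85 CPM in shCDK12+OHT and at 0.58 to 2.51 CPM in shNT+OHT. The part of these marker differences in the members' differences was not tested.

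**Figure D1:**
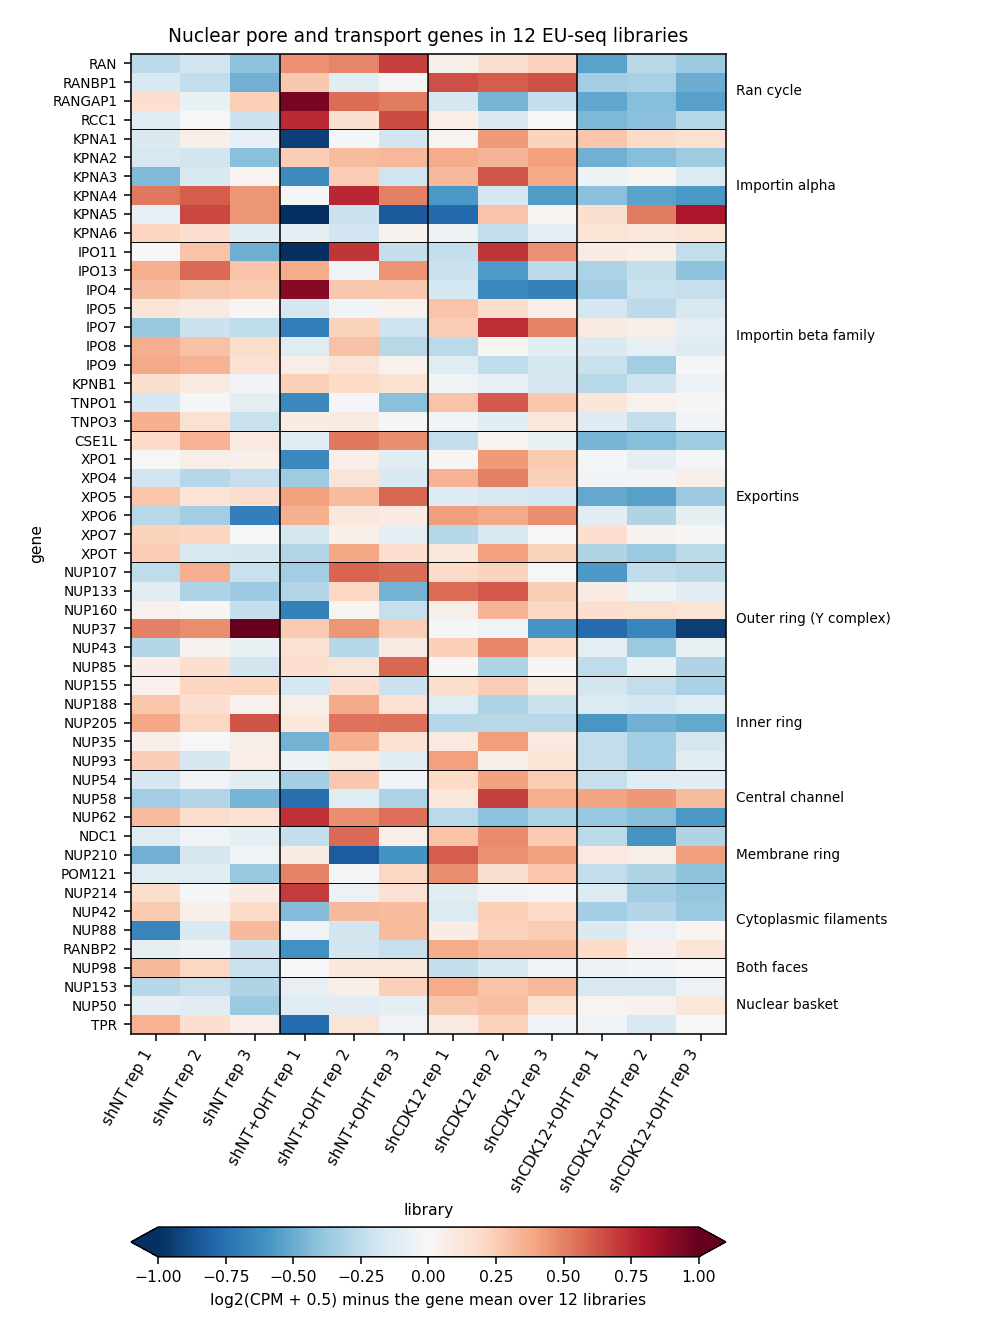
Level of each of 52 members (rows, grouped by role) in each of the 12 libraries (columns), as log2(CPM + 0.5) minus the mean of that gene over the libraries, with colours limited to 1 either way. KPNA7 is left out for its low counts. The rows of RAN, RCC1, RANGAP1 and KPNA2 are raised in the 3 shNT+OHT libraries and lowered in the 3 libraries labelled shCDK12+OHT, and replicate 1 of shNT+OHT differs from its 2 partners in many rows.

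The map of levels in all libraries shows the members by role. They fall into 6 genes of the outer ring or Y complex, 5 of the inner ring, 3 of the central channel, 3 of the membrane ring, 4 of the cytoplasmic filaments, NUP98 on both faces and 3 of the nuclear basket. The transport machinery adds 7 importin alpha adaptors, 10 import receptors of the importin beta family, 7 exportins and 4 genes of the Ran cycle. Of these, 16 overlap another gene of the table, among them RCC1 with SNHG3, RANGAP1 with ZC3H7B, RANBP1 with TRMT2A, XPO5 with POLR1C and NUP62 with ATF5 and IL4I1. The strand setting of the counting is not given in the sources used here, so reads of such neighbours may be mixed. RANBP2 and POM121 have near-identical copies in the genome, and their counts are uncertain for that reason.

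The effect of Myc activation with the control shRNA was read from shNT+OHT against shNT. Among the members, 7 rose and 0 fell. They were the Ran cycle genes RAN, RCC1 and RANGAP1, the adaptor KPNA2, the exportin XPO6, and the nucleoporins POM121 and NUP62. The quasi-likelihood test of edgeR, with p-values adjusted over all genes by Benjamini-Hochberg and a threshold of 0.05, was possible for 49 members, while KPNA5, KPNA7, IPO11 and NUP210 had too few counts. The 7 calls were 14.3% of those tested, below the 17.3% called among all 10272 genes, and all 7 were rises, while 9.05% of all genes were called higher and 8.29% lower. The median log2 fold change was 0.05 for the members and -0.03 for all genes. In 10 members every shNT+OHT library lay above every shNT library and in 2 below, against a background of 35.9% of all genes whose groups did not overlap in either direction.

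RAN, the GTPase itself, read 304, 317 and 274 CPM in the shNT libraries and 501, 513 and 585 CPM in the shNT+OHT libraries. Every library with OHT was above every library without, and the log2 fold change was 0.83 ± 0.11 (SE), a 1.78-fold rise with an adjusted p of 0.000228. RCC1, the exchange factor that loads Ran with GTP on chromatin, read 178, 191 and 165 CPM without OHT and 321, 214 and 302 CPM with it. It rose by 0.65 ± 0.15 on the log2 scale (adjusted p 0.00724). The spread with OHT was wide for RCC1, since replicate 2 stayed close to the shNT range.

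RANGAP1, which switches on GTP hydrolysis by Ran at the cytoplasmic face of the pore, read 174, 148 and 183 CPM in the shNT libraries and 299, 228 and 222 CPM in the shNT+OHT libraries. It rose by 0.57 ± 0.15 (adjusted p 0.0172), and the call was lost without shNT replicate 1 or shNT replicate 2. RANBP1, the cofactor of RANGAP1 that frees Ran from transport receptors, read 64.6, 60.7 and 51.6 CPM against 86.8, 66 and 72.5 CPM. Its groups did not overlap either, but the log2 fold change of 0.35 ± 0.17 did not pass the test (adjusted p 0.168).

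The promoters of RAN and RCC1 are shown because both genes rose with OHT and hold the letters CACGTG, the core E-box that Myc with its partner MAX is known to bind. The sequences are those of RefSeq on GRCh38.p14, 5′ to 3′ on the strand of the gene, from 250 bases before the annotated start and ending before the first annotated exon, with CACGTG in capitals. The counts themselves were made on hg19. The RAN stretch is chr12:130871816-130872036 (+ strand, 221 bases), with the E-box starting 102 bases before the start, and the RCC1 stretch is chr1:28517976-28518135 (+ strand, 160 bases), with the E-box 190 bases before one of its annotated starts.
RAN: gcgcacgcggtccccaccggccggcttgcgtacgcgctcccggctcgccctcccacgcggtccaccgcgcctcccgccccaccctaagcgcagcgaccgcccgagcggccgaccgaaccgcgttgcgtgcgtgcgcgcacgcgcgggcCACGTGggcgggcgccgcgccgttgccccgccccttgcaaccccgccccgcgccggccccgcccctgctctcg
RCC1: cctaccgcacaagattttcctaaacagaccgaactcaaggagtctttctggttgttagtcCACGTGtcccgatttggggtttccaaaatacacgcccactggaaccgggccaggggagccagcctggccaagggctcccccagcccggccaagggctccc

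No promoter window was listed for KPNA4, KPNA5, KPNA7, KPNB1, NUP43, RANBP1 and XPO7, which were therefore not searched. Windows, from 250 bases before to 50 after a start, were listed for the other 46 of the 53 members. CACGTG, which reads the same on both strands, stood in a window of 8 of them (17.4%), against 10.8% of the 16493 genes of the table that have one and 13% of the 8374 among them that were tested with OHT in shNT cells. By window the shares were 13.6%, 8.3% and 9.52%. All 7 members that rose have a window, and the letters were found in those of RAN and RCC1 but not in those of RANGAP1, KPNA2, XPO6, POM121 or NUP62. The other 6 members with the motif, none of which passed the test with OHT in shNT cells, are shown with 12 bases on each side to let the flanks be compared. NUP188 holds it at 2 places.
XPO1, chr2:61537114-61537143, minus strand: gtccgcctgcatCACGTGgccccctcggtg
NUP188, chr9:128947610-128947639, plus strand: ccgcggcaacgtCACGTGacgaaatccccg
NUP188, chr9:128947657-128947686, plus strand: ggggcgagcggtCACGTGggcatggcgtct
IPO7, chr11:9384502-9384531, plus strand: agctcaggcagcCACGTGggctgcggactg
KPNA3, chr13:49792731-49792760, minus strand: accgcccccggtCACGTGtcgccagcctcc
IPO4, chr14:24188828-24188857, minus strand: tgtcagaacctcCACGTGctgtccctcccc
NUP50, chr22:45163739-45163768, plus strand: cgttgccggcccCACGTGagccgacgcccc
These matches describe the letters only and were not tested against the changes.

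Of the importin alpha adaptors, which recognise nuclear localisation signals, KPNA2 alone passed the test among the 5 tested. It read 474, 464 and 396 CPM without OHT and 628, 659 and 666 CPM with it, groups that stood well apart. Its rise was 0.54 ± 0.10, or 1.46-fold (adjusted p 0.00317). KPNA5 was at 8.2, 14.1 and 12 CPM in shNT and at 4.07, 7.42 and 4.64 CPM in shNT+OHT, lower in every library, but it was too low to be tested here.

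None of the 9 import receptors tested passed. KPNB1, importin beta itself, which carries the adaptor and its cargo through the channel, read 387, 370 and 341 CPM against 410, 399 and 385 CPM. Its groups overlapped, with a log2 fold change of 0.12 ± 0.11 (adjusted p 0.486). The other 8 ranged from -0.33 for IPO8 to 0.25 for IPO4.

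Among the 7 exportins, XPO6, which exports actin bound to profilin, rose from 52, 49.4 and 39.1 CPM to 80.8, 67.6 and 66.7 CPM. Its log2 fold change was 0.61 ± 0.18 (adjusted p 0.0285), a call that was lost on leaving out any 1 of the shNT libraries. CSE1L, which returns importin alpha to the cytoplasm, read 210, 234 and 197 CPM in shNT and 171, 265 and 254 CPM in shNT+OHT. XPO1, the main receptor for leucine-rich export signals, read 219, 227 and 226 CPM against 139, 227 and 202 CPM. For both, replicate 1 of shNT+OHT lay far below its partners, and neither the 0.09 ± 0.15 of CSE1L nor the -0.26 ± 0.16 of XPO1 passed (adjusted p 0.732 and 0.271).

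Of the 24 nucleoporins tested, POM121, a membrane anchor of the pore, and NUP62, a component of the central channel, passed. POM121 read 152, 152 and 127 CPM without OHT and 233, 163 and 191 CPM with it (0.45 ± 0.14, adjusted p 0.0445). NUP62 rose from 486, 443 and 433 CPM to 653, 542 and 574 CPM (0.37 ± 0.11, adjusted p 0.0312). Both calls sat close to the threshold and were lost on leaving out any 1 of the shNT libraries or shNT+OHT replicate 3. The POM121 call was also lost without shNT+OHT replicate 1, with a filter at a mean normalised count of 10, and with libraries thinned to the smallest total. The basket nucleoporin NUP153 was also higher in every OHT library but missed the threshold (0.34 ± 0.12, adjusted p 0.0533). Its basket partner TPR was at -0.40 ± 0.19 (adjusted p 0.154), with 80.5 CPM in replicate 1 of shNT+OHT and 150 and 134 CPM in the others. None of the outer ring, inner ring, filament or basket genes passed.

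**Figure D2:**
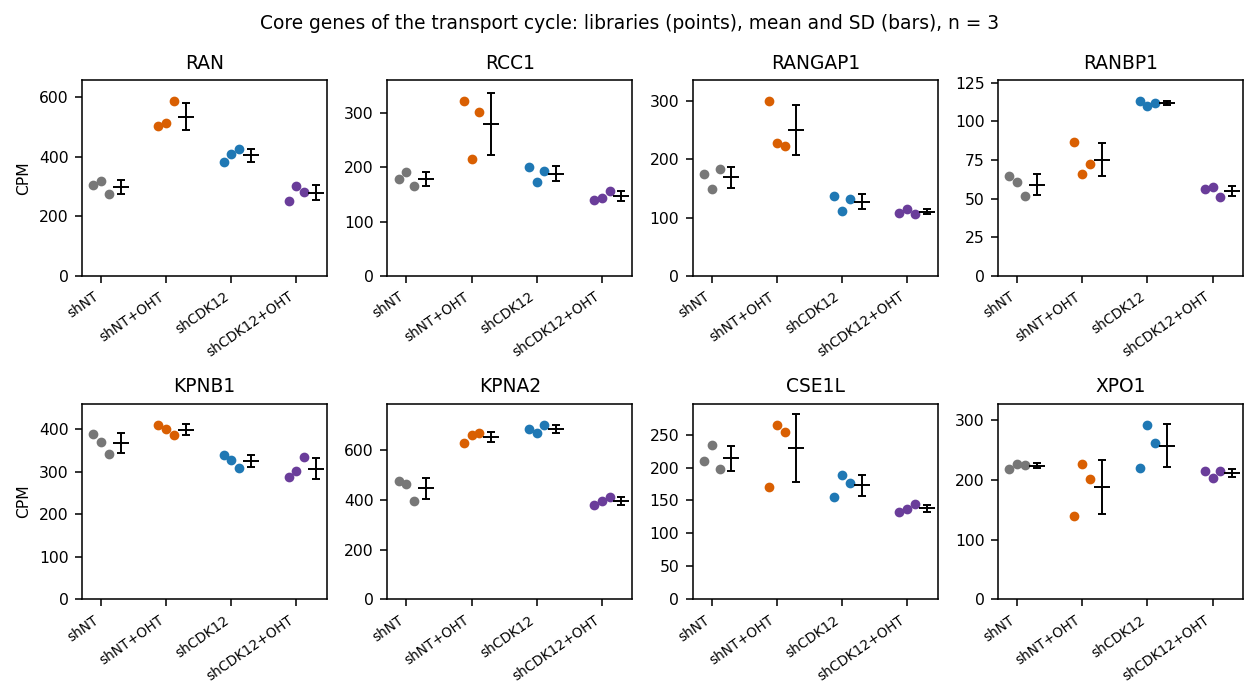
CPM of 8 genes of the transport cycle in each library (points, 3 per group, axes from 0), with the mean and SD of each group beside them. RAN, RCC1 and RANGAP1 are highest in shNT+OHT, RANBP1 is highest in the libraries labelled shCDK12, and KPNA2 is raised in both of these groups.

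The same contrast in the libraries labelled shCDK12 ran the other way for many members. In shCDK12+OHT against shCDK12, 28 members fell and 1 rose of 52 tested. The falls took in 3 of 4 Ran cycle genes, 6 of 7 exportins, and 14 of 25 nucleoporins tested, found in the outer, inner and membrane rings, the channel, the filaments and the basket. The 29 calls were 55.8% of the members against a background of 48.9% of 12519 genes, but 53.8% of the members were called lower against 21.5% of all genes, and 1.92% higher against 27.5%. The median log2 fold change was -0.32 for the members and 0.05 for all genes. The libraries did not overlap in 31 members that were lower and 2 that were higher with OHT, against 56.3% of all genes in either direction.

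RANBP1 showed the largest fall, from 113, 110 and 112 CPM in the libraries labelled shCDK12 to 56.4, 57.5 and 51 CPM in those labelled shCDK12+OHT. Its log2 fold change was -1.02 ± 0.09, to 0.493 of the level without OHT (adjusted p 8.42e-08), with narrow spread in both groups. RAN went from 380, 408 and 425 CPM to 251, 301 and 282 CPM, a change of -0.54 ± 0.08 (adjusted p 3.04e-05). RCC1 went from 200, 173 and 192 CPM to 140, 143 and 157 CPM, a change of -0.36 ± 0.08 (adjusted p 0.00176). The 3 genes thus lay lower in every library with OHT. Their means with OHT, in the same order, were 55, 278 and 147 CPM, beside 59, 298 and 178 CPM in shNT. RANGAP1 read 137, 112 and 131 CPM against 108, 115 and 106 CPM, groups that overlapped, and its -0.20 ± 0.09 did not pass (adjusted p 0.0849).

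KPNA2, which had risen with OHT in shNT cells, fell from 684, 669 and 701 CPM to 378, 394 and 412 CPM. The change was -0.80 ± 0.07 (adjusted p 8.52e-08). The related adaptor KPNA3 also fell (-0.51 ± 0.10, adjusted p 0.000501). KPNA6 was the only member called higher, among 7 with a positive fold change. It read 217, 189 and 209 CPM without OHT and 246, 242 and 246 CPM with it. Its rise of 0.26 ± 0.08 (adjusted p 0.0109) was lost with DESeq2, with upper-quartile normalisation, in a fit of all 12 libraries and when length and GC trends were removed.

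The import receptors split. IPO7, an importer of ribosomal proteins, fell by 0.50 (SE 0.10, adjusted p 0.000569), IPO5 by 0.38 (SE 0.09, adjusted p 0.00193) and TNPO1, the receptor for PY-type signals on RNA-binding proteins, by 0.34 (SE 0.09, adjusted p 0.00439). The other 7 did not pass. KPNB1 was among them, with 339, 327 and 309 CPM against 286, 301 and 333 CPM and a log2 fold change of -0.09 ± 0.08 (adjusted p 0.39).

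Of the exportins only XPO7, at 0.22 ± 0.11 (adjusted p 0.101), did not fall. XPO6 went from 84.5, 82.1 and 87 CPM to 58.3, 50.9 and 59 CPM (-0.60 ± 0.10, adjusted p 6.59e-05). The tRNA exporter XPOT fell by 0.58 (SE 0.10), and XPO4 and the pre-miRNA exporter XPO5 by 0.38 and 0.33. CSE1L read 156, 188 and 176 CPM against 133, 137 and 144 CPM (-0.33 ± 0.09, adjusted p 0.00362). XPO1 read 220, 293 and 262 CPM against 216, 204 and 215 CPM (-0.29 ± 0.09, adjusted p 0.0132), and this call was lost without shCDK12+OHT replicate 2.

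In the pore itself the largest fall was that of NDC1. This gene, whose product seats the pore in the envelope, went from 64.4, 73.2 and 63.3 CPM to 43.7, 34.8 and 42.8 CPM (-0.74 ± 0.11, adjusted p 3.62e-05), and its membrane partner POM121 fell by 0.62 (SE 0.09, adjusted p 1.8e-05). The third membrane gene, NUP210, did not pass at -0.32 ± 0.20 (adjusted p 0.194). In the outer ring, the scaffold of the pore, 4 of 6 genes fell. These were NUP37 (-0.63), NUP107 (-0.52), NUP133 (-0.52) and NUP43 (-0.50), while NUP160 and NUP85 did not pass. NUP37 had under 8 CPM in each of these libraries and lost its call in most alternatives. In the inner ring NUP35, NUP93 and NUP155 fell by 0.49, 0.44 and 0.43, whereas the large scaffold genes NUP205 (-0.25 ± 0.11) and NUP188 (0.07 ± 0.09) did not pass. NUP54 of the channel, NUP42 and RANBP2 of the filaments and NUP153 and NUP50 of the basket fell by 0.18 to 0.46, and of these NUP50 and RANBP2 lost their calls on leaving out most of the single libraries. NUP98, which sits on both faces, was at 0.11 ± 0.09 (adjusted p 0.302).

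**Figure D3:**
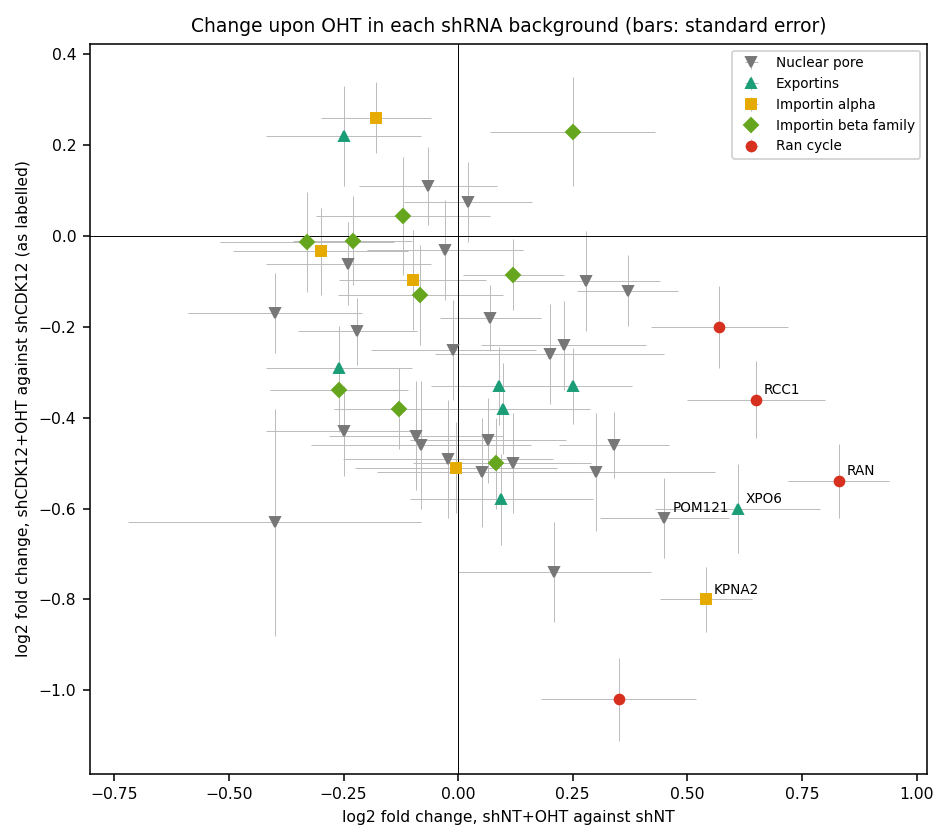
Log2 fold change upon OHT in shNT cells (horizontal axis) and in the libraries labelled shCDK12 (vertical axis) for the 49 members tested in both, with standard errors as bars and the role as symbol. The members named passed the test in both contrasts, and all 5 lie to the right of zero and below it. Opposite signs, called or not, were found in 71.1% of 10233 genes and in 57.1% of the 49 members.

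Whether the 2 responses differed was tested directly, as the interaction of OHT and shRNA over all 12 libraries. The change upon OHT was lower in the libraries labelled shCDK12 than in shNT for 16 members and higher for 3, of 52 tested. All 4 Ran cycle genes were among the 16, with RAN at -1.38 ± 0.14 (adjusted p 2.33e-07), RANBP1 at -1.37 ± 0.18 (adjusted p 5.31e-06), RCC1 at -1.02 ± 0.17 and RANGAP1 at -0.78 ± 0.18. KPNA2 stood beside them at -1.34 ± 0.13 (adjusted p 7.54e-08). The 19 calls were 36.5% of the members, fewer than the background of 45.2% of 11699 genes, while 30.8% of the members were called lower against 19.6% of all genes and 5.77% higher against 25.6%. The median was -0.30 for the members and 0.10 for all genes.

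The rest of the 16 were XPO6, POM121, NDC1, NUP153, NUP107, XPOT, NUP43, XPO5, IPO7, NUP62 and NUP54, from -1.20 for XPO6 to -0.50 for NUP62 and NUP54. The 3 in the other direction were KPNA5 (1.79 ± 0.47, adjusted p 0.00428), XPO7 (0.47 ± 0.19, adjusted p 0.0461) and KPNA6 (0.44 ± 0.15, adjusted p 0.0204). KPNA5 lay under 16 CPM in every library. The XPO7 call was lost in all 7 alternatives that kept every library. The calls of KPNA6, NUP54, NUP43, IPO7, XPOT and NUP107 were lost on leaving out at least 1 of the 12 libraries, and the other 12 were not. The interaction was not called for KPNB1 (-0.20 ± 0.13, adjusted p 0.214), CSE1L (-0.42 ± 0.19, adjusted p 0.0748) or XPO1 (-0.03 ± 0.19, adjusted p 0.912). Upper-quartile normalisation gave 1 higher and 23 lower in place of 3 and 16, and removing length and GC trends gave 1 higher and 33 lower.

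**Figure D4:**
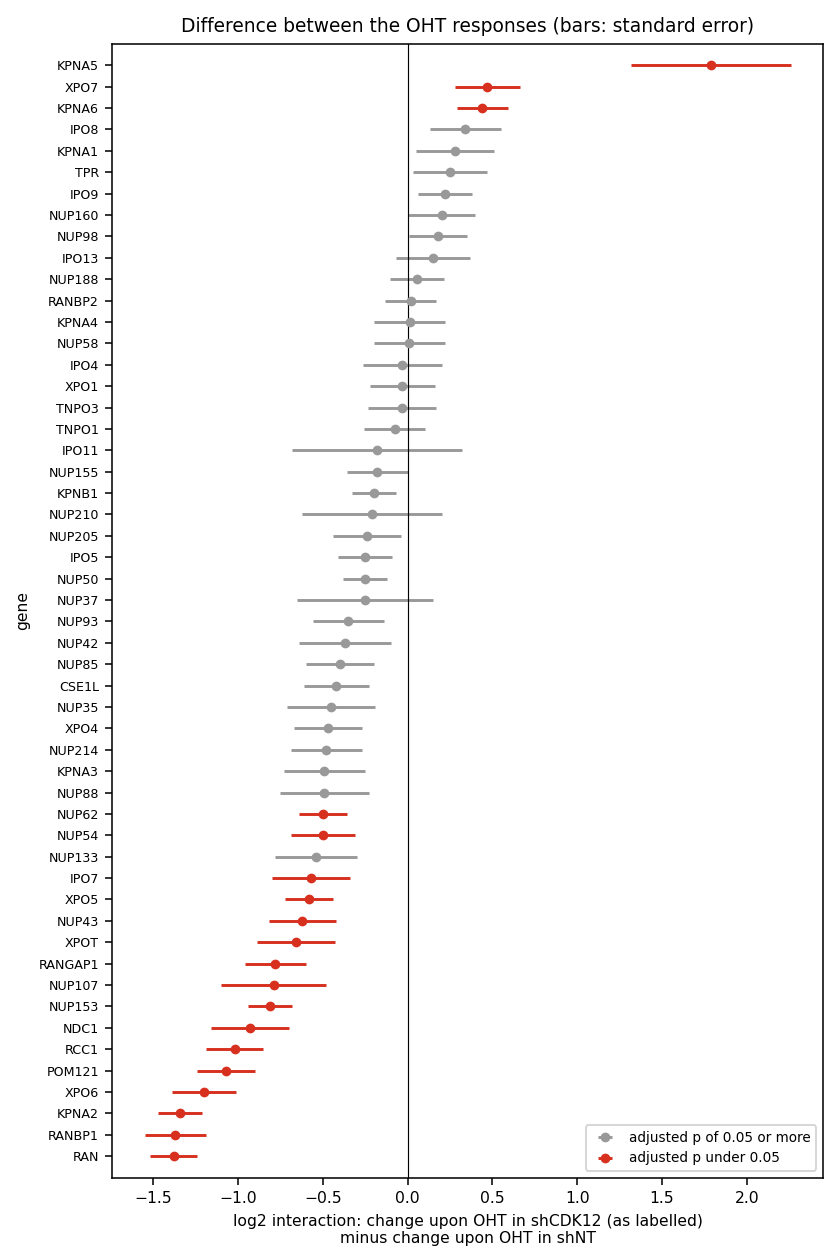
Log2 interaction (change upon OHT in the libraries labelled shCDK12 minus that in shNT) for the 52 members tested, in order, with standard errors as bars and the members with an adjusted p under 0.05 in red. RAN, RANBP1 and KPNA2 form the low end between -1.38 and -1.34, and KPNA5 the high end at 1.79.

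The OHT contrasts share no library. Across the 49 members tested in both, the fold changes had Pearson's r = -0.40, and 24 members were positive with shNT and negative with the libraries labelled shCDK12. Over 10233 genes r was -0.62, and 71.1% had opposite signs against 57.1% of the members. Opposite signs were thus more frequent over all genes than among the members, of which 19 were negative in both. These correlations are across genes of the same libraries, which are not independent points.

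The fold changes also correlated with transcript length and GC content, to an extent that differed between comparisons. For shNT+OHT against shNT, the correlation of the log2 fold change with length was -0.45 over the 49 members and -0.25 over all genes, and that with GC content was 0.43 and 0.27. For the interaction the values with length were 0.48 and 0.18. Over the members the length value was largest for shCDK12+OHT against shNT+OHT, at 0.53, where that with GC content was -0.41. The length value was smallest for shCDK12 against shNT, at 0.04. With both trends removed, 9 members rose and 0 fell with OHT in shNT, and 13 of 49 changed sign, none of them with a call. TPR, XPO1 and KPNA1 (67.4 CPM against 128 and 114 CPM) were low in replicate 1 of shNT+OHT beside its partners. Without that replicate, 8 members rose and 0 fell with OHT in shNT, while without replicate 2 of shNT+OHT 8 rose and 1, TNPO1, fell, and in a fit of all 12 libraries 8 rose and 1, KPNA5, fell. Without replicate 1, 2 were higher and 22 lower in the interaction.

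The difference between the shRNAs without OHT, shCDK12 against shNT as labelled, took both directions. Of 52 members tested, 20 were higher and 15 lower. Of the 25 nucleoporins 11 were higher and 5 lower, of the 10 import receptors 2 were higher and 4 lower, and of the 7 exportins 2 were higher and 3 lower. The 35 calls were 67.3% of the members, close to the background of 62% of 11718 genes, with 38.5% higher against 29.6% and 28.8% lower against 32.4%. The median log2 difference was 0.14 for the members and -0.03 for all genes. The libraries did not overlap in 20 members that were higher and 14 that were lower, against 64.5% of all genes in either direction.

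Within the Ran cycle the genes parted. With the values given above, RANBP1 was at 51.6 to 64.6 CPM in shNT and at 110 to 113 CPM in the libraries labelled shCDK12, a log2 difference of 0.91 ± 0.11 (adjusted p 1.67e-07). RAN was 0.43 ± 0.08 higher (adjusted p 7.05e-05), and RANGAP1 was lower, at -0.42 ± 0.11 (adjusted p 0.00155). RCC1 overlapped between the groups at 0.07 ± 0.09 (adjusted p 0.52).

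The adaptors parted as well. KPNA2 was 0.62 ± 0.08 and KPNA3 0.65 ± 0.13 higher, while KPNA4 read 182, 192 and 171 CPM in shNT and 84.3, 112 and 85.5 CPM in the libraries labelled shCDK12. KPNA4 showed the largest fall of all members, -0.95 ± 0.11 (adjusted p 4e-08). Among the carriers IPO7 rose from 133, 149 and 145 CPM to 205, 289 and 244 CPM (0.80 ± 0.11, adjusted p 4.7e-07). IPO13, which imports proteins including the SUMO-conjugating enzyme, fell from 49.2, 56.6 and 46.6 CPM to 32.7, 25.5 and 31.6 CPM (-0.79 ± 0.15, adjusted p 7.22e-05). IPO4, IPO9 and IPO8 also fell, by 0.78, 0.49 and 0.40. KPNB1 lay lower in every library but did not pass at -0.18 ± 0.08 (adjusted p 0.0631).

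XPO6 rose from the shNT values of 39.1 to 52 CPM to 82.1 to 87 CPM (0.83 ± 0.13, adjusted p 3.88e-06), and XPO4 rose by 0.62. CSE1L, XPO5 and XPO7 were lower, at -0.31, -0.35 and -0.31, of which the first and last lost their calls without shNT replicate 2, and XPO1 did not pass at 0.21 ± 0.10 (adjusted p 0.0628). In the pore NUP58 (0.77) and NUP54 (0.40) of the channel rose while their partner NUP62 fell (-0.55 ± 0.08, adjusted p 2.91e-06). The outer ring likewise held 3 rises, led by NUP133 (0.75), and the fall of NUP37. NUP37 read 11.2, 10.9 and 17 CPM in shNT and 7.64, 7.56 and 5 CPM in the libraries labelled shCDK12 (-0.90 ± 0.29, adjusted p 0.00889), a call that was lost without shCDK12 replicate 3. All 3 membrane genes were higher, NUP210 by 0.77, POM121 by 0.49 and NDC1 by 0.43, and the NUP210 call was lost without shNT replicate 1. KPNA1, KPNA6, NUP98 and NUP160, all within 0.3 of zero, and IPO8 were called too and lost their calls without shNT replicate 1.

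**Figure D5:**
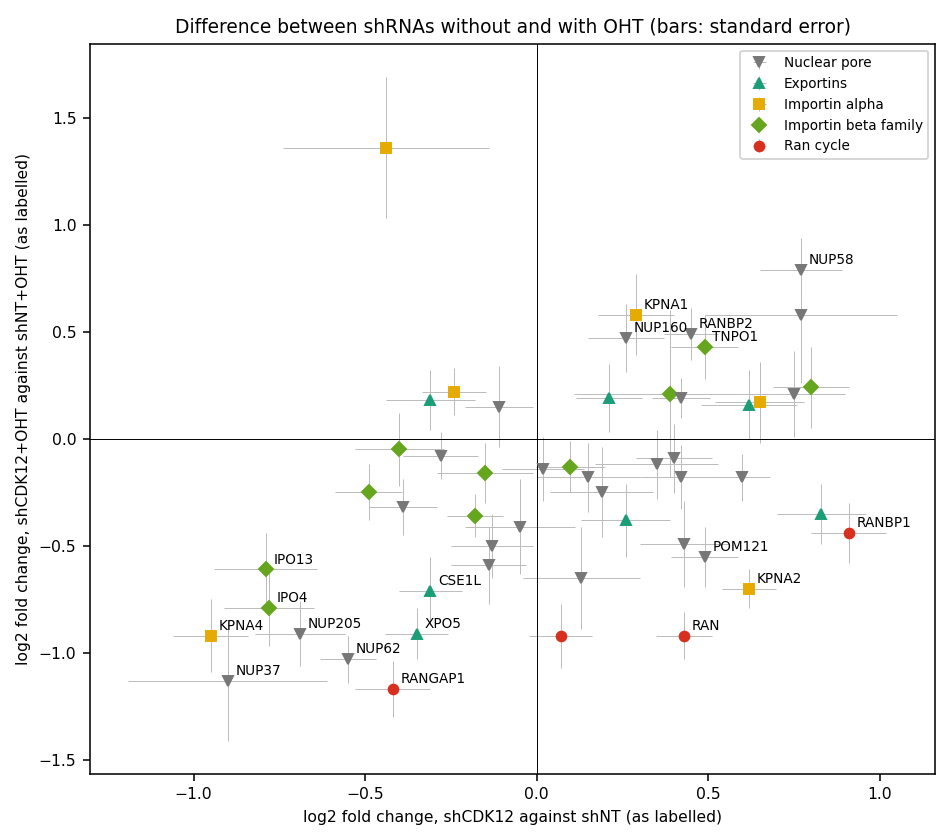
Log2 difference between the shRNAs, shCDK12 against shNT as labelled, without OHT (horizontal axis) and with OHT (vertical axis) for 52 members, with standard errors as bars and the role as symbol. Named members passed the test in both contrasts. RAN, RANBP1, KPNA2 and POM121 lie at the lower right, higher without OHT and lower with it.

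With OHT, in shCDK12+OHT against shNT+OHT, the balance turned to lower values. Of 52 members 18 were lower and 6 higher, and all 4 Ran cycle genes were among the lower ones. The 24 calls were 46.2% of the members, near the background of 45.4% of 11668 genes, with 34.6% lower against 21.6% and 11.5% higher against 23.8%. The median log2 difference was -0.18 for the members and 0.05 for all genes. The libraries did not overlap in 23 members that were lower and 8 that were higher, against 55.2% of all genes in either direction. Removing length and GC trends gave 4 higher and 31 lower in place of 6 and 18, and leaving out shCDK12+OHT replicate 1 gave 2 higher and 13 lower.

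RANGAP1 had the largest fall. It was at 222 to 299 CPM in shNT+OHT and at 106 to 115 CPM in the libraries labelled shCDK12+OHT, a log2 difference of -1.17 ± 0.13 (adjusted p 8.21e-05). RAN was at -0.92 ± 0.11 (adjusted p 9.05e-05) and RCC1 at -0.92 ± 0.15 (adjusted p 0.000563), both at 0.528 of the shNT+OHT level. RANBP1 was lower by a smaller amount, -0.44 ± 0.14 (adjusted p 0.0243), and lost its call on leaving out any 1 of the shCDK12+OHT libraries.

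KPNA2 was at -0.70 ± 0.09 (adjusted p 0.000172), and its carrier KPNB1 and recycling factor CSE1L were lower as well, KPNB1 at -0.36 ± 0.10 (adjusted p 0.0147) and CSE1L at -0.71 ± 0.16 (adjusted p 0.0038). The KPNB1 call was lost without replicate 1 or 2 of shCDK12+OHT. KPNA4 stayed low, with 94.4, 87 and 84.3 CPM against 125, 213 and 179 CPM (-0.92 ± 0.17, adjusted p 0.00157). XPO1, in contrast, did not pass at 0.19 ± 0.16 (adjusted p 0.343). The exportin XPO5 was lower, at -0.91 ± 0.12 (adjusted p 0.000189). Of the import receptors, IPO4 (-0.79) and IPO13 (-0.61) were also lower and TNPO1 (0.43) was higher. The IPO13 and TNPO1 calls were lost without replicate 1 or replicate 3 of shCDK12+OHT. Other importin alpha adaptors lay higher. KPNA5 was at 9.78, 12.7 and 15.6 CPM against 4.07, 7.42 and 4.64 CPM (1.36 ± 0.33, adjusted p 0.00602), and KPNA1 at 157, 148 and 144 CPM against 67.4, 128 and 114 CPM (0.58 ± 0.19, adjusted p 0.0299). The KPNA1 call was lost on leaving out any 1 of the shCDK12+OHT libraries.

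In the pore the channel gene NUP62 was at 301, 292 and 264 CPM against 653, 542 and 574 CPM (-1.03 ± 0.11, adjusted p 4.58e-05), while NUP58, its channel partner, was at 168, 172 and 159 CPM against 75.5, 117 and 103 CPM (0.79 ± 0.15, adjusted p 0.0019). NUP62 and NUP58 thus lay on opposite sides, as they did without OHT, while NUP54, the third channel gene, did not pass at -0.09 ± 0.16 (adjusted p 0.657). NUP37 was the lowest relative to shNT+OHT after RANGAP1, with 4.35, 4.75 and 3.81 CPM against 9.4, 10.7 and 9.28 CPM (-1.13 ± 0.28, adjusted p 0.00744). NUP205 (-0.91), NUP214 (-0.59), POM121 (-0.55), NUP107 (-0.65) and NUP85 (-0.50) were lower, and NUP160 (0.47) and RANBP2 (0.49) higher. Of these 7, the calls of NUP205 and POM121 held with each library left out in turn. No basket gene passed.

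The other genes of the pathway, 44 in number and outside the naming rule, were counted in the same fits. With OHT in shNT cells 6 of 39 tested rose and 0 fell, beside 9.05% and 8.29% of all genes. They were 5 genes of mRNA export, NXT1 (0.85 ± 0.15), DDX39A (0.60), NCBP2 (0.53), POLDIP3 (0.53) and ALYREF (0.52), and the snRNA export adaptor PHAX (0.45). With OHT in the libraries labelled shCDK12, 12 of 44 fell and 3 rose, beside 21.5% and 27.5% of all genes. NXT1 (-0.87), the pore-seeding nucleoporin AHCTF1 (-0.85), the mRNA export receptor NXF1 (-0.79), whose partner is NXT1, and ALYREF (-0.76) had the largest falls. In the interaction 11 of 42 were lower and 0 higher, beside 19.6% and 25.6% of all genes, led by NXT1 at -1.73 ± 0.16 (adjusted p 8.97e-08). Between the shRNAs 18 of 43 were higher and 6 lower without OHT, beside 29.6% and 32.4% of all genes. With OHT 7 of 42 were higher and 11 lower, beside 23.8% and 21.6%. NXF1 was 1.31 ± 0.09 higher without OHT (adjusted p 4.1e-12) and 0.35 ± 0.11 higher with it (adjusted p 0.0192).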

How the data were processed

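EU-seq libraries of human U2OS-MycER cells were analysed, with mouse RNA (10 µg to 40 µg human) added before pull-down per the labels. The deposited values were raw read counts per gene, and the submitters' processing notes name the authors' tools as STAR 2.7.5c and featureCounts 1.4.5-p1 and the build as hg19. The gene annotation and strand setting were not given in the sources used here. No mouse gene was identified in the table, so no spike-in scaling was applied. Entrez identifiers were matched to RefSeq symbols for 23265 of 23434 genes.

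Each pairwise comparison was fitted on its 6 libraries, and the interaction on all 12, with edgeR 4.0.16 (quasi-likelihood test, TMM, R 4.3.3). Genes needed a mean normalised count above 32, and p-values were Benjamini-Hochberg adjusted over all genes tested, with a threshold of 0.05. Each SE was calculated as the absolute log2 fold change divided by the square root of the F statistic of its test. Alternatives were DESeq2 1.42.0, upper-quartile normalisation, no filter, a filter of 10, 1 fit of all libraries, a replicate block, thinning of each library to 1251695 counts, leaving out each library and, chosen after seeing the data, removal of trends with length and GC content (longest GENCODE transcript on GRCh38, 53 of 53 members). Comparisons that share a group share its libraries and are not independent. The scripts were tested on simulated data. Depth was 1251695 to 10447836 counts per library.

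The members, role groups and lists were chosen with earlier results of these data known. Genes named with full values were the Ran cycle genes, KPNB1, KPNA2, CSE1L and XPO1, and in each comparison the 3 largest called rises and falls without overlap of libraries (for the interaction, the 3 largest called each way). Other members were named with their role group, after their values were seen.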

Additional observations from a re-analysis of the deposited data

Results flagged for a closer look

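For 19 members the change upon OHT differed between the libraries labelled shCDK12 and the shNT libraries by the interaction test. These are marked for a closer look because the 2 sets of libraries, as labelled, changed differently with the same treatment. The labels of the shCDK12 libraries were not settled by these counts. The 19 were 36.5% of the members tested, against 45.2% of all genes. On the log2 scale the difference was -1.38 for RAN, -1.37 for RANBP1, -1.34 for KPNA2, -1.20 for XPO6, -1.07 for POM121, -1.02 for RCC1, -0.93 for NDC1 and -0.81 for NUP153. It was -0.79 for NUP107, -0.78 for RANGAP1, -0.66 for XPOT, -0.62 for NUP43, -0.58 for XPO5, -0.57 for IPO7 and -0.50 for both NUP54 and NUP62. It was 0.44 for KPNA6, 0.47 for XPO7 and 1.79 for KPNA5. Of the 19 calls, 12 were kept in each alternative and with each library left out in which the member was tested, and KPNA5 among them was not tested after thinning. CDK12 itself had an interaction of -0.83 ± 0.13 (adjusted p 4.55e-05) and MYC one of 0.96 ± 0.13 (adjusted p 7.93e-06), and their part in these differences was not tested.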

How the results depend on the processing

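Calls kept in each alternative and with each library left out in which the member was tested numbered 3 of 7 for shNT+OHT against shNT, 19 of 29 for shCDK12+OHT against shCDK12, 25 of 35 for shCDK12 against shNT, 14 of 24 for shCDK12+OHT against shNT+OHT and 12 of 19 for the interaction. The 3 were RAN, RCC1 and KPNA2. KPNA5 and NUP37, counted as kept in the fourth comparison (KPNA5 also in the interaction), had too few counts in some. With 1 library left out, the calls ranged from 3 to 9, 25 to 30, 29 to 36, 15 to 30 and 13 to 24 in that order, and the median log2 of the members from -0.032 to 0.12, -0.34 to -0.27, 0.079 to 0.19, -0.25 to -0.15 and -0.38 to -0.26. For shNT+OHT against shNT, 3 members were called without shNT replicate 1, 3 without replicate 2 and 4 without replicate 3, and the median was -0.032 without shNT+OHT replicate 2. For shCDK12+OHT against shNT+OHT, 15 were called without shCDK12+OHT replicate 1.

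Removing length and GC trends gave 34 interaction calls and moved the medians to 0.19 for shNT+OHT against shNT, -0.38 for shCDK12+OHT against shNT+OHT and -0.48 for the interaction. Thinning moved the last 2 to -0.32 and -0.41, and upper-quartile normalisation moved that of shCDK12 against shNT to 0.23 and that of the interaction to -0.42, with the interaction median of all genes going from 0.10 to -0.017. The cause was not tested. XPO1 changed sign without a call: to 0.041 (shNT+OHT against shNT) and -0.18 (shCDK12+OHT against shNT+OHT) with length and GC trends removed, to -0.0046 in the latter without shNT+OHT replicate 1 (range with 1 library left out -0.0046 to 0.29), and, in the interaction (range -0.22 to 0.098), to 0.098, 0.038 and 0.059 without shNT+OHT replicate 2, shNT+OHT replicate 3 and shCDK12 replicate 2. The groups share replicate numbers only: deviations of same-numbered libraries correlated at -0.093 to 0.31 (median 0.029, over 0.1 in 2 of 18 pairs). With the replicate number as a block, 7, 29, 38, 24 and 20 members were called. Depth limits KPNA5, KPNA7, IPO11, NUP210 and NUP37, and the smallest library held 1251695 counts.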
